A study of Homo sapiens with 6 samples.

Results

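Deoxynucleotides, the building blocks of DNA, are made by a short chain of enzymes, and 9 genes of that chain were followed here among 60656 gene rows: RRM1, RRM2 and RRM2B (ribonucleotide reductase), TYMS, DUT and DTYMK (thymidylate synthesis), and TK1, DCK and TK2 (salvage kinases). They were taken from the table by gene symbol, and all 9 had enough counts to be tested. The cells were parental ZR-75-1, an established ER-positive human breast cancer line in which RB1 had not been knocked out, grown in serum-containing RPMI-1640 medium with 500 nM abemaciclib, an inhibitor of the kinases CDK4 and CDK6, or with an equal volume of DMSO, its solvent, for 4 days. Each treatment had 3 libraries, which the study's methods describe as separate cultures, all of a single cell line. The comparison asks how the RNA of these enzymes differed after CDK4/6 inhibition.

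Ribonucleotide reductase removes an oxygen from ribonucleotides and so makes the deoxy forms of ADP, GDP, CDP and UDP. Its large subunit, encoded by RRM1, carries the active site and works with one of a pair of small subunits: RRM2, made in S phase and destroyed in mitosis, or RRM2B, a p53-inducible form that is used outside S phase and in resting cells. Thymidylate synthase (TYMS) makes dTMP from dUMP with a folate cofactor, dUTPase (DUT) supplies that dUMP while keeping uracil out of DNA, and thymidylate kinase (DTYMK) phosphorylates dTMP further. Salvage kinases recover ready-made deoxynucleosides: TK1 in the cytosol of dividing cells, TK2 in mitochondria through the whole cell cycle, and DCK for deoxycytidine and the purine deoxynucleosides.

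The stretches of DNA just upstream of these genes are shown first, with matches to letters known as motifs of cell cycle promoters. Short motifs of 3 kinds were searched on both strands in the 250 bases before each RefSeq gene start (GRCh38). They were the E2F type, spelled TTTCCCGC, TTTCGCGC, TTTGCCGC or TTTGGCGC, CCAAT, the box bound by NF-Y, and the cell cycle homology region (CHR), spelled TTCGAA or TTTGAA. E2F-type and CCAAT matches share no letters in the sites shown. Of 35116 windows of this length for all genes, 2.79% held an E2F-type match, 32.0% held CCAAT and 14.3% held a CHR match. CCAAT and CHR matches are thus common among all genes and not particular to the members. Windows were found for 8 of the 9 members, and RRM2B had none. Capitals mark the E2F-type and CCAAT matches. The 150 bases before the starts of TYMS and RRM1, which lie outside annotated exons of those genes, were the following, TYMS at chr18:657503-657652 and RRM1 at chr11:4094535-4094684, both on the plus strand.
TYMS: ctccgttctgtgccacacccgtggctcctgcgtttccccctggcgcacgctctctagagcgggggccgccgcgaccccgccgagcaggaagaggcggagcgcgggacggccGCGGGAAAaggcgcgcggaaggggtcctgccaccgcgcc
RRM1: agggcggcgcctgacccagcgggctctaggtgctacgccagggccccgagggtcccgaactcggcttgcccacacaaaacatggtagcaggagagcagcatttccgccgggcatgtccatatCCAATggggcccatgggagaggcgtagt
TYMS held a single E2F-type match, 39 bases before its start, and RRM1 a single CCAAT, 28 bases before its start.

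For the members whose upstream bases run into exons of their own longer transcripts, only the short stretches around the matches are shown. DUT held 2 E2F-type matches before its innermost start, at chr15:48332152-48332180 on the plus strand. At least 2 such matches were found in 0.122% of all windows, a share of single windows, whereas DUT had more than 1 window. The windows before its other starts held no E2F-type match and no CCAAT. RRM2 held 3 CCAAT boxes before the later of its starts, at chr2:10122608-10122628, chr2:10122638-10122658 and chr2:10122665-10122685 on the plus strand. The window before its earlier start held 1 CCAAT, 249 bases before that start. Before one of its starts TK1 held 2 CCAAT boxes read from the other strand (ATTGG), at chr17:78187117-78187137 and chr17:78187086-78187106 on the minus strand. The window before the other TK1 start held no match. DTYMK held 2 CCAAT boxes, at chr2:241686895-241686915 and chr2:241686827-241686847 on the minus strand. Windows with at least 2 CCAAT boxes were 9.53% of all.
DUT: ctgGCGGGAAAtttcggtTTTGGCGCgct
RRM2 box 1: aggcgcagCCAATgggaaggg
RRM2 box 2: tggcacagCCAATgggaaggg
RRM2 box 3: caccaaagCCAATgggaaggg
TK1 box 1: gggcgctgATTGGccccatgg
TK1 box 2: ggctcgtgATTGGccagcacg
DTYMK box 1: ggccccggCCAATcccttcga
DTYMK box 2: gacgccggCCAATgggagctc
Each RRM2 box was followed by the same letters, gggaaggg. CHR matches, which are not in capitals, began 84 bases before the start of DTYMK, 199 bases before that of RRM1, and 214 and 129 bases before the innermost start of DUT. DCK and TK2 held none of these motifs in their windows. A match describes the letters and does not show that a factor binds there.

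Libraries held 3317860 to 4013156 counts, so that 1 library could show a gene at 0 counts when its level was as high as 0.748 to 0.904 CPM (a gene's counts relative to the library's TMM-scaled total), a limit that covers counting error only. All 8 luminal markers checked, ESR1 and GATA3 among them, were expressed, with a summed level of 7478 to 7935 CPM with DMSO and 8520 to 9512 CPM with abemaciclib. They did not move together. By edgeR at an adjusted P under 0.05, ESR1 and KRT19 were higher (log2 fold change 0.83 and 0.45) and KRT18 was lower (−0.34), while the others did not pass. KRT19, the largest part of the sum, went from a mean of 3130 to 4280 CPM. The 3 basal and the 3 blood cell markers were at 0 in every library. Of 5 fibroblast markers, 3 were at 0, and the list summed to 10.4 to 15.8 CPM with DMSO and 10.1 to 15.4 CPM with abemaciclib. Apart from 1 count of DCN, that sum was COL1A1 alone (means 13.1 CPM with DMSO and 12.5 CPM with abemaciclib). Of 3 endothelial markers, 2 were at 0, and the list summed to at most 1.51 CPM.

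With abemaciclib, 6 of the 9 genes were lower at an adjusted P under 0.05 and 0 were higher. The genes that fell were TYMS, RRM2, TK1, DTYMK, DUT and RRM1, and those that passed in neither direction were DCK, RRM2B and TK2. Over all 10863 genes tested, 13.3% were lower and 12.5% were higher by the same edgeR quasi-likelihood test. At an unadjusted P under 0.05, 7 members were lower and 1 was higher, and DESeq2 called 6 lower and 0 higher. Among the members the median log2 fold change came to −1.37, against −0.0018 over all genes tested. Summed over the 9 genes, the level was 978, 959 and 925 CPM in the DMSO libraries and 318, 318 and 360 CPM in the abemaciclib libraries. The groups did not overlap in this sum (difference −622 CPM, two-sided exact permutation P = 0.1, the smallest that 3 against 3 libraries allow). In these bulk RNA samples, fewer cells that express a gene and less of its RNA per cell cannot be told apart.

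**Figure D1:**
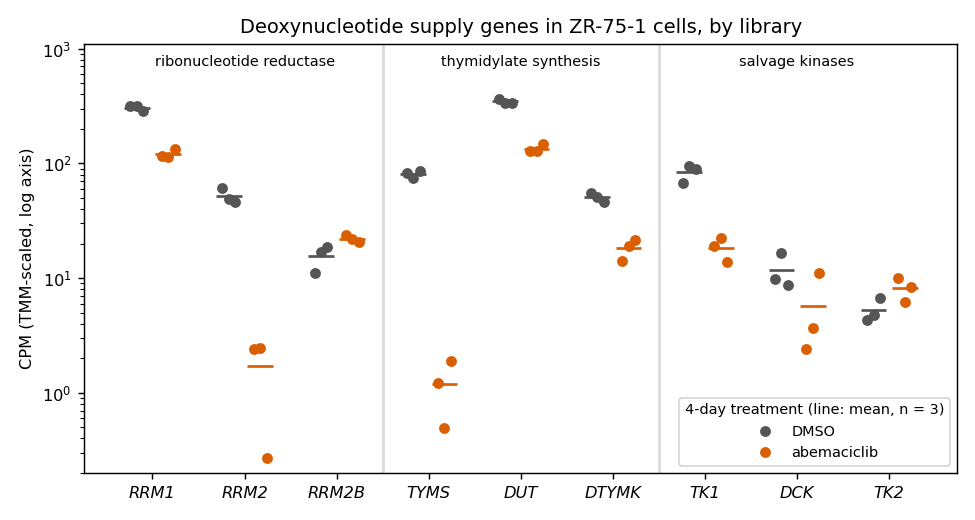
Level of each gene in every library, in CPM on a log axis, with DMSO in grey and abemaciclib in orange; points are libraries and lines are means of 3. TYMS and RRM2 fell furthest, from means of 81.0 and 52.2 CPM to 1.20 and 1.72 CPM. The abemaciclib points of RRM2B all lie above its DMSO points, as was so for 19.1% of all genes tested.

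RRM1, on chromosome 11 (4094707 to 4138932, plus strand), gave 1095, 1064 and 944 counts with DMSO and 385, 464 and 497 with abemaciclib. Its level fell from 307 ± 17.9 to 122 ± 10.9 CPM (SD, n = 3), which left 39.7% of the DMSO level. The log2 fold change of RRM1 was −1.33 ± 0.10 (s.e., the standard error of the fit, adjusted P = 5.21e-11). Every abemaciclib library lay below every DMSO library, as was so for 20.1% of all genes tested.

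RRM2, on chromosome 2 (10120698 to 10211725, plus strand), encodes the small subunit of S phase and fell far more. It gave 212, 166 and 151 counts with DMSO and 8, 10 and 1 with abemaciclib. Its level went from 52.2 ± 8.26 to 1.72 ± 1.26 CPM (SD, n = 3), 3.29% of the DMSO level. The log2 fold change of RRM2 was −4.90 ± 0.32 (s.e., adjusted P = 1.09e-12). The spread between the abemaciclib libraries was wide relative to their mean, since abemaciclib replicate 3 rests on a single count.

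RRM2B, on chromosome 8 (102204502 to 102238961, minus strand), encodes the alternative small subunit and did not follow RRM2. It gave 38, 57 and 62 counts with DMSO and 79, 88 and 77 with abemaciclib. The levels were 11.0, 16.9 and 18.8 CPM with DMSO and 23.9, 21.7 and 20.8 CPM with abemaciclib, so that the groups did not overlap. Of all genes tested, 19.1% had every abemaciclib library above every DMSO library, and 20.1% had every one below. The log2 fold change of RRM2B was 0.51 (standard error 0.24), and it did not pass the test (unadjusted P = 0.0419, adjusted P = 0.121 by edgeR).

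The small subunit whose RNA made up most of the counts of the pair therefore differed between the treatments, and the proteins were not measured here. RRM2B gave 15.2%, 25.6% and 29.1% of the counts of RRM2 and RRM2B together in the DMSO libraries. In the abemaciclib libraries it gave 90.8%, 89.8% and 98.7%. The exact (Clopper-Pearson) 95% intervals of these shares ran from 11.0% to 35.7% over the DMSO libraries and from 82.0% upwards over the abemaciclib libraries, and cover counting error only. The mean share differed by 69.8 percentage points (two-sided exact permutation P = 0.1, the smallest possible here). Because both genes are read in the same library, this share does not depend on the scaling between libraries. The kit reads transcript ends, so counts of different genes were compared without a length term, although reads without molecular identifiers are not independent molecules.

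**Figure D2:**
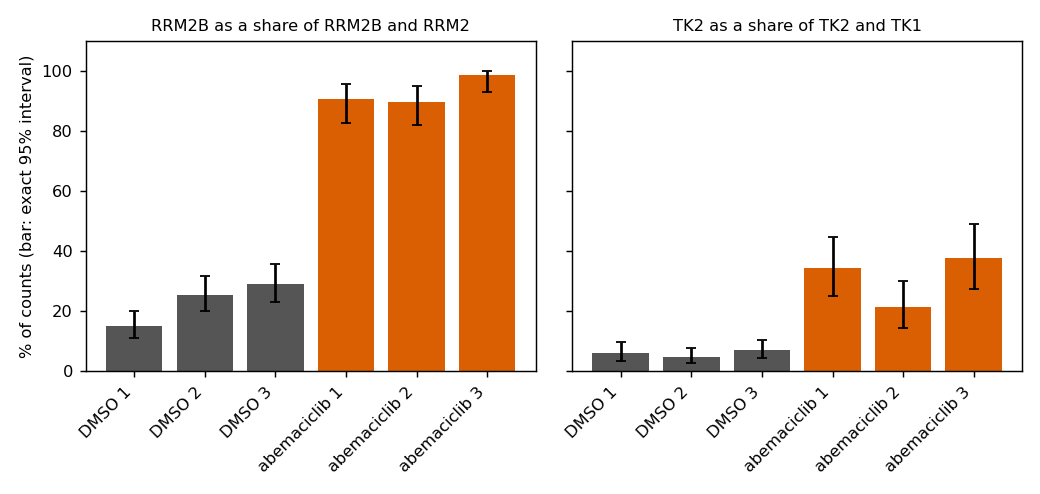
RRM2B as a percentage of the counts of RRM2 and RRM2B (left) and TK2 as a percentage of those of TK1 and TK2 (right), by library, with DMSO in grey and abemaciclib in orange; error bars are exact 95% intervals. RRM2B went from 15.2% to 29.1% with DMSO to 89.8% to 98.7% with abemaciclib, and TK2 from 4.76% to 6.94% to 21.6% to 37.8%.

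Within a library, the log2 ratio of RRM2B to RRM2 (0.5 counts added to each) was −1.76 ± 0.62 with DMSO and 4.00 ± 1.47 with abemaciclib (SD, n = 3). The difference was 5.76 (exact permutation P = 0.1), or 4.91 without abemaciclib replicate 3. The log2 ratio of RRM2 to RRM1 went from −2.56 ± 0.17 to −6.45 ± 1.67, a difference of −3.89 (exact permutation P = 0.1), or −2.92 without the same library. The RNA of RRM2 thus fell further than that of the large subunit in every library of the drug-treated group. When the small subunits were added together, a quantity chosen after their values were seen, there were 0.229, 0.210 and 0.226 of their counts for each RRM1 count with DMSO, and 0.227, 0.212 and 0.158 with abemaciclib. These groups overlapped (log2 difference −0.17, exact permutation P = 0.6, or −0.013 without abemaciclib replicate 3), which does not show that the ratio was the same.

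In the thymidylate branch all 3 genes fell. TYMS, on chromosome 18 (657653 to 673578, plus strand), gave 286, 252 and 281 counts with DMSO and 4, 2 and 7 with abemaciclib. Its level fell from 81.0 ± 5.41 to 1.20 ± 0.70 CPM (SD, n = 3), 1.48% of the DMSO level and close to the detection limit of these libraries. The log2 fold change of TYMS was −6.06 ± 0.27 (s.e., adjusted P = 1.99e-16), and only 4 of the 10863 genes tested had a lower one.

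The last exon of TYMS (672860 to 673578) overlaps exons of ENOSF1 on the opposite strand, and whether the counting used the strand is not given in the sources used here. ENOSF1, a mitochondrial enolase-like enzyme, gave 96, 107 and 61 counts with DMSO and 103, 105 and 69 with abemaciclib. ENOSF1 had a fitted log2 change of −0.05 ± 0.23 (s.e., adjusted P = 0.907), with a sign that turned in 2 of 12 alternative analyses. Unlike those of TYMS, the counts of ENOSF1 overlapped between the groups. The genes that overlap the last exons of RRM1 (RRM1-AS1) and TK2 (ENSG00000260755 and ENSG00000260851) had 0 counts in every library.

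DUT, on chromosome 15 (48331011 to 48343373, plus strand), had the highest level of the 9 genes. It gave 1269, 1126 and 1118 counts with DMSO and 425, 517 and 546 with abemaciclib. The level fell from 347 ± 18.3 to 135 ± 11.2 CPM (SD, n = 3), 38.8% of the DMSO level. The log2 fold change of DUT was −1.37 ± 0.10 (s.e., adjusted P = 1.81e-11). Processed copies of DUT could take some of its reads. Of 8 such pseudogenes 5 had 0 counts in every library and none reached more than 7 in any library. How reads that match several places were counted is not given in the sources used here. These counts therefore do not show how many reads DUT lost. The listed pseudogenes of RRM2 and TYMS had 0 counts throughout.

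DTYMK, on chromosome 2 (241675747 to 241686944, minus strand), gave 191, 173 and 152 counts with DMSO and 47, 77 and 80 with abemaciclib. The level fell from 50.9 ± 4.70 to 18.3 ± 3.75 CPM (SD, n = 3), and the log2 fold change of DTYMK was −1.47 ± 0.19 (s.e., adjusted P = 6.54e-07). TYMS and DTYMK act one after the other, yet they fell unequally. The log2 ratio of TYMS to DTYMK went from 0.67 ± 0.19 to −3.93 ± 0.89 (SD, n = 3), a difference of −4.60 with no overlap between the groups (exact permutation P = 0.1).

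Among the salvage kinases, only TK1 passed the test. TK1, on chromosome 17 (78174091 to 78187233, minus strand), gave 233, 320 and 295 counts with DMSO and 63, 91 and 51 with abemaciclib. That was 84.0 ± 14.5 against 18.4 ± 4.37 CPM (SD, n = 3), 21.9% of the DMSO level. All 3 abemaciclib libraries lay below the lowest DMSO library, as was so for 20.1% of all genes tested, and the log2 fold change was −2.18.

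DCK, on chromosome 4 (70992538 to 71030914, plus strand), gave 34, 56 and 29 counts with DMSO and 8, 15 and 41 with abemaciclib. The levels were 9.86, 16.6 and 8.78 CPM with DMSO and 2.42, 3.70 and 11.1 CPM with abemaciclib. The groups overlapped because of abemaciclib replicate 3, which exceeded 2 of the DMSO libraries. The log2 fold change of DCK was −1.02 ± 0.42 (s.e., adjusted P = 0.0747). Without abemaciclib replicate 3 it was −1.91 (adjusted P = 0.000639), and with all libraries but no filter on low counts it was −1.02 (adjusted P = 0.0353), so that DCK passed or not with that library and with the filter. Among the abemaciclib libraries, RRM1, TYMS, DUT and DTYMK were also highest in replicate 3, whereas RRM2, RRM2B and TK1 were lowest in it.

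TK2, on chromosome 16 (66508003 to 66552544, minus strand), had the lowest level of the 9 genes with DMSO. It gave 15, 16 and 22 counts with DMSO and 33, 25 and 31 with abemaciclib, or 4.35, 4.75 and 6.66 CPM against 9.98, 6.17 and 8.38 CPM. The groups overlapped, and TK2 did not pass the test (log2 fold change 0.63, standard error 0.39, adjusted P = 0.262). As a share of the counts of both thymidine kinases, TK2 was 6.05%, 4.76% and 6.94% with DMSO and 34.4%, 21.6% and 37.8% with abemaciclib. The groups did not overlap in this share, whose means differed by 25.3 percentage points (exact permutation P = 0.1). The log2 ratio of TK2 to TK1 was higher by 2.81 with abemaciclib (exact permutation P = 0.1).

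**Figure D3:**
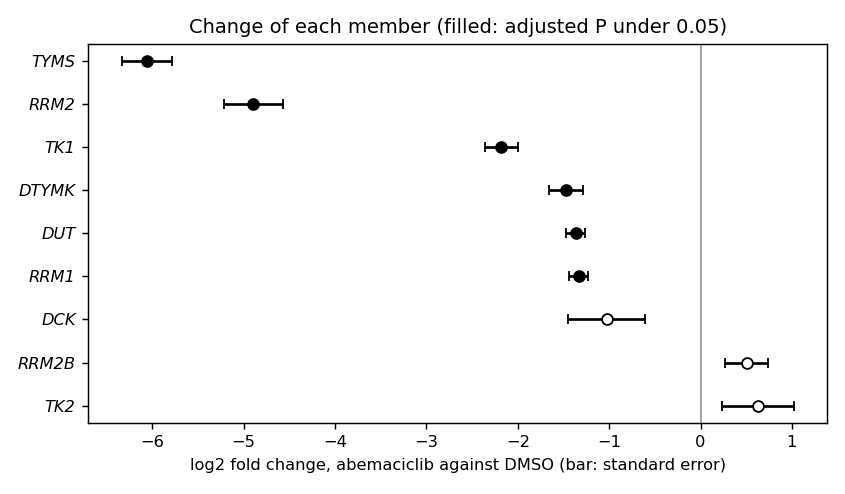
Log2 fold change of each gene, abemaciclib against DMSO, with its standard error; filled points had an adjusted P under 0.05. TYMS (−6.06) and RRM2 (−4.90) lie far below the other genes that fell, which lie between −2.18 and −1.33, while RRM2B (0.51) and TK2 (0.63) lie above 0 without passing the test.

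The order of the levels differed between the treatments. With DMSO it ran DUT, RRM1, TK1, TYMS, RRM2, DTYMK, RRM2B, DCK and TK2, and the library ranges overlapped for the neighbours TK1 and TYMS, RRM2 and DTYMK, and RRM2B and DCK. With abemaciclib it ran DUT, RRM1, RRM2B, TK1, DTYMK, TK2, DCK, RRM2 and TYMS. There the ranges overlapped between all neighbours except RRM1 and RRM2B, and DTYMK and TK2. RRM2B moved from the seventh place to the third and TYMS from the fourth to the last. DUT and RRM1 together made up 67.5% to 70.1% of the members' summed level with DMSO and 76.1% to 78.4% with abemaciclib.

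The pattern of RRM2 over the 6 libraries was compared with that of 6145 genes with a mean of at least 20 CPM, by the root mean square difference of centred log2 values. HMMR, a spindle-associated protein (0.430), WDR76 (0.456) and CNIH2 (0.488) were the nearest. Their levels with abemaciclib were 6.05, 3.55 and 3.42 CPM, after 107, 75.8 and 100.2 CPM with DMSO. For RRM2B the nearest were MIB1, a ubiquitin ligase of Notch signalling (0.0910), TECPR2 (0.0936) and ENSG00000215154 (0.105). MIB1 rose to 132 CPM (log2 fold change 0.47, adjusted P = 0.00574), while TECPR2 went from 16.7 to 24.8 CPM without passing the test (adjusted P = 0.0693). Likeness over 6 libraries of a 2-group design is set largely by the difference between the groups, and says nothing of shared control.

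Genes around the 9 enzymes were grouped by role. Of 53 such genes, 50 were tested, and their median change was −0.09 log2 units. Of the 50, 12 were lower and 4 were higher (24.0% and 8.0%), against 13.3% and 12.5% of all genes tested. The counts in each list below stand beside the same shares of all genes. The counts of 12 and 4 depended on single libraries. Without DMSO replicate 3, 7 were lower. Higher genes numbered 1 without DMSO replicate 1, and 2 when DMSO replicate 2 or 3 or abemaciclib replicate 2 was left out.

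The folate cycle, which supplies the cofactor of thymidylate synthase, had 4 lower and 1 higher of 9 genes tested, and a median change of −0.47 log2 units. MTHFD1L, a mitochondrial folate enzyme, fell to a log2 fold change of −1.32 (edgeR adjusted P = 0.00631, or 0.0529 without DMSO replicate 2).

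The kinases that act after the member kinases had 0 lower and 2 higher of 7 genes tested, with a median of 0.25. At an unadjusted P under 0.05, 0 were lower and 3 were higher, and DESeq2 called 0 and 2. The change in AK4 was 0.60 log2 units (adjusted P = 0.0431) and that in NME1 0.29 (adjusted P = 0.0305). AK4 lost its call in 7 of 12 alternative analyses (adjusted P = 0.0518 to 0.363), among them those without any of the DMSO libraries or without abemaciclib replicate 2. NME1 lost its call in 5 (adjusted P = 0.0673 to 0.125), among them those without any of the DMSO libraries or without abemaciclib replicate 1. The sequence of NME1 is closely related to that of NME2.

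Among the other salvage enzymes, which include DGUOK, the mitochondrial partner of TK2, 0 of 5 genes tested passed in either direction, also by DESeq2 or at an unadjusted P under 0.05 with edgeR. Of the genes for nucleotide breakdown, pool cleaning and uracil removal, 3 of 10 tested were lower and 0 were higher. DESeq2 called only 1 lower and 0 higher, and at an unadjusted P under 0.05 with edgeR 3 were lower and 2 were higher. SAMHD1, which degrades dNTPs, had 21.2 ± 3.48 CPM with DMSO and 12.0 ± 6.93 CPM with abemaciclib (SD, n = 3; log2 fold change −0.81, adjusted P = 0.0465). The groups of SAMHD1 overlapped, and its call did not hold under DESeq2, nor when any of the DMSO libraries or abemaciclib replicate 1 or 2 was left out (adjusted P = 0.0606 to 0.225). NT5C, a deoxynucleotidase, changed by −0.69 log2 units (adjusted P = 0.0219). NT5C lost this call under DESeq2, and also when DMSO replicate 2 or 3 or abemaciclib replicate 1 or 3 was left out (adjusted P = 0.0544 to 0.0973).

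The electron donors that recharge ribonucleotide reductase had 2 lower and 0 higher of 4 genes, with 1 higher at an unadjusted P under 0.05 and 0 by DESeq2. Thioredoxin reductase TXNRD1 fell by 0.58 log2 units (adjusted P = 0.00263), and its substrate TXN had a value of −0.07 (adjusted P = 0.724). Glutathione reductase GSR fell by 0.41 (adjusted P = 0.0150, or 0.0524 to 0.0608 when DMSO replicate 2 or 3 or abemaciclib replicate 1 was left out). Glutaredoxin GLRX, with only 1.69 and 3.81 CPM in the groups, had a log2 fold change of 1.16 and did not pass (adjusted P = 0.129).

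Nucleoside and nucleotide carriers had 1 lower and 0 higher of 5 genes, and no further rise by DESeq2 or at an unadjusted P under 0.05. The nucleoside transporter SLC29A2 was the one that fell (log2 fold change −0.51, adjusted P = 0.0104, or 0.0733 without DMSO replicate 3). Of 8 genes that maintain mitochondrial DNA, 1 was lower and 1 was higher. The mitochondrial single-stranded DNA binding protein SSBP1 fell by 0.52 log2 units (adjusted P = 0.000382). MPV17, a mitochondrial inner membrane protein needed for the mitochondrial dNTP supply, rose from 18.2 ± 4.68 to 37.0 ± 3.23 CPM (SD, n = 3; log2 fold change 1.02, standard error 0.21, adjusted P = 0.000424). The calls of SSBP1 and MPV17 held in all 12 alternative analyses.

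**Figure D4:**
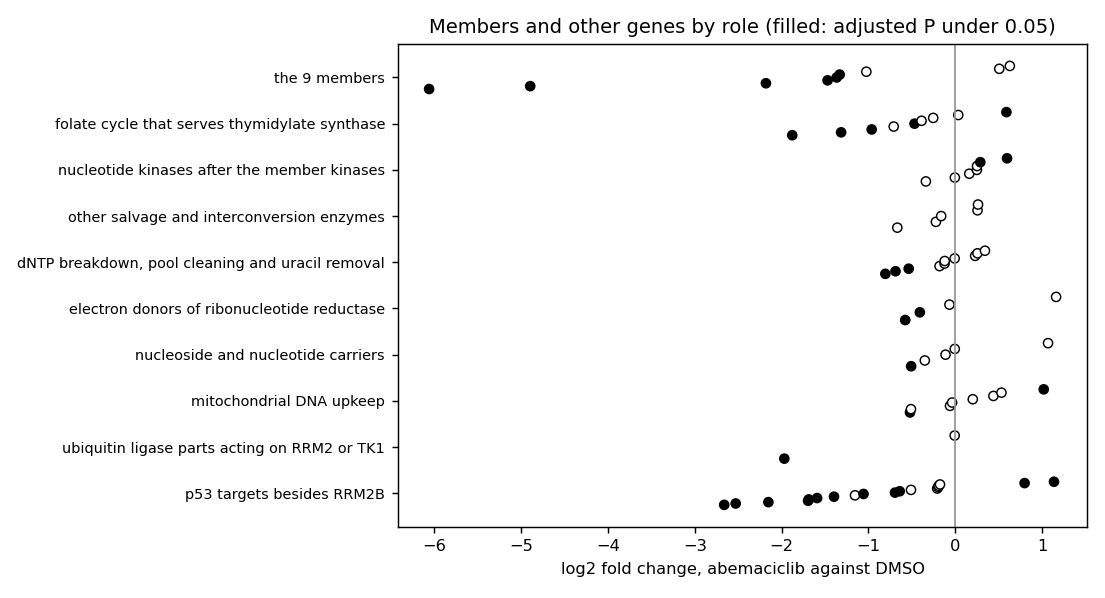
Log2 fold change, abemaciclib against DMSO, of the 9 members and of the other genes tested by role; each point is a gene, filled where the adjusted P was under 0.05. The members reach −6.06, whereas the genes of the other roles lie between −2.66 and 1.16.

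Proteins of this pathway are also removed by ubiquitin ligases. Cyclin F (CCNF), which marks RRM2 protein for destruction in G2, fell from 106 ± 14.7 to 27.1 ± 3.17 CPM (SD, n = 3; log2 fold change −1.97, adjusted P = 3.06e-11). FZR1, the APC/C activator that acts on TK1 protein at mitotic exit, stood at −0.01 log2 units (adjusted P = 0.982), with a sign that turned in 3 of 12 alternatives. RNA counts do not measure the proteins on which these ligases act.

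RRM2B is a known target of p53, and 20 other targets were listed beside it. Of these, 18 were tested, 10 were lower and 2 were higher (55.6% and 11.1%, against 13.3% and 12.5% of all genes tested). Their median change was −0.88 log2 units, while RRM2B, at 0.51, did not pass the test. The lowest were CDKN1A and GDF15, at −2.66 and −2.53. TP53INP1 (1.14, adjusted P = 0.0465) and TIGAR (0.80, adjusted P = 0.0450) were higher, but DESeq2 called 0 of the list higher. TIGAR and TP53INP1 each lost the call in 7 alternatives (adjusted P = 0.0502 to 0.167 for TIGAR and 0.0526 to 0.210 for TP53INP1). Those included leaving out DMSO replicate 3, abemaciclib replicate 1 or abemaciclib replicate 3 for both genes, DMSO replicate 1 for TP53INP1 and DMSO replicate 2 for TIGAR. That list was known to fall in these data before it was set beside RRM2B.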

How the data were processed

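The 6 RNA-seq libraries of parental ZR-75-1 cells were grouped by the treatment in their labels, and those of RB1 knockout cells were not used here. For the 3′ mRNA libraries, single-end reads were trimmed by the authors (BBDuk), mapped to hg38 (STAR 2.7.5b) and counted per gene with featureCounts 2.0.1 on GENCODE v35. The deposited values are raw counts, neither normalized nor filtered. The strand setting is not given in the sources used here.

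Groups were compared with edgeR 4.0.16 under R 4.3.3 (filterByExpr for low counts, TMM scaling, quasi-likelihood test, Benjamini–Hochberg adjustment over 10863 genes, threshold 0.05). The standard error was the size of the log2 fold change divided by the square root of F. Ratios were compared by two-sided exact permutation over libraries with scipy 1.17.1. The fit was tested on simulated data. Coordinates are from GENCODE v44 (GRCh38) and sequences from RefSeq promoter windows on GRCh38. Totals were 3317860 to 4013156 counts per library, without molecular identifiers. The detection limit and the exact intervals of the shares cover counting error only, whereas the standard errors of the edgeR fit include the spread between libraries.

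Members and role lists were chosen with earlier results of these data known. Named genes were all members, of each list up to 2 with the largest called rise and up to 2 with the largest called fall (every gene of lists of 4 or fewer), the 3 most like RRM2 and RRM2B, and genes overlapping a member's last exon. Some genes that this rule names are not reported here. Alternatives were DESeq2 1.42.0, its size factors, total counts as scaling, no filter, at least 10 counts in every library, a replicate block, added pseudogene counts, and each library left out.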

Additional observations from a re-analysis of the deposited data

How the results depend on the processing

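Every member kept its direction under all alternatives that could be run, and its side of the threshold except DCK, which passed with no filter on low counts (log2 fold change −1.02, adjusted P = 0.0353) and without abemaciclib replicate 3 (−1.91). TYMS, RRM2 and DCK had fewer than 10 counts in some library and were not tested under that filter, which left 4 members lower. The members' median ran from −1.60 to −1.33 when single libraries were left out, with −1.60 without abemaciclib replicate 3. Of the role list genes, 7 to 12 were lower and 1 to 6 were higher when single libraries were left out. Replicate numbers did not mark pairs (correlation of deviations −0.142, 0.0046 and −0.209 for the same number), and a replicate block left 6 members lower, 0 higher, 12 role list genes lower and 2 higher. Low depth limits TK2, RRM2B and DCK, and the residual level of TYMS and RRM2.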

Other observations

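TYMSOS, a long non-coding RNA gene on the minus strand of chromosome 18 (630886 to 658350) whose annotated exons reach the start of TYMS, was chosen after its values were seen. It gave 26, 39 and 35 counts with DMSO and 0, 5 and 1 with abemaciclib. The fitted change was −4.12 ± 0.62 log2 units (s.e., adjusted P = 9.16e-06 by edgeR), and it was lower in all 3 abemaciclib libraries. Because the strand setting of the counting is not given in the sources used here, reads within the overlap of TYMS and TYMSOS cannot be assigned to either. That overlap lies at the starts of both genes, whereas the kit reads transcript ends, and reads there were not counted apart.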
